A study of Mus musculus with 96 samples.

Results

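The genes described here are the numbered Zfp genes, the mouse symbols for zinc finger proteins, that were well measured after serum was given back to starved fibroblasts. They were chosen from the 15895 genes of the expression table by their symbol, Zfp followed by digits, without Zfp36, and by a mean value of 50 or more over all libraries. This took 214 of the 312 Zfp genes in the table and left out 98 with a lower mean. The mean of the 214 genes ranged from 51.2 to 2287, with a median of 158, and the libraries after serum are among those the mean is taken over. Just inside the limit were Zfp935 at 51.2, Zfp956 at 51.6, Zfp11 and Zfp248 at 51.8 and Zfp667 at 52.0, and just outside it Zfp235 at 49.2, Zfp605 at 48.5, Zfp54 at 46.3, Zfp341 at 45.1 and Zfp382 at 44.4. The mean of the starved libraries and the mean of the libraries after serum were both 50 or more in 209 of the 214, while 4 were below 50 when starved and 1 was below 50 after serum. Among the Zfp genes left out, 26 had a starved mean of 50 or more.

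The cells were primary embryonic fibroblasts (MEFs) of CF1 mice at day 13 of development, for which the labels name no engineered allele. All of them were starved for 36 h in medium with 0.5% fetal calf serum and then brought to 20% serum, and RNA was sequenced through a pair of time courses that both start at -1 h, Cycle 1 with its last library at 38 h and Cycle 2 at 27 h. Used here were 63 libraries of Cycle 1 and 32 of Cycle 2, 1 for each time of a Cycle, without the 12.5 h library of Cycle 1, so that the replicates are the Cycles at the 29 hours they share and the 4 starved libraries at -1 and 0 h. The labels do not say whether the Cycles came from separate embryos, and the p-values measure only the spread between these libraries.

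A value is the number of reads on the exons of a gene, scaled by the authors to the same total in every library and not divided by gene length, so that values are compared within a gene. The depth recovered from the steps of the values was 5067432 to 14500278 reads per library, from 10483234 to 12135142 in the starved libraries with a recovered depth and from 5339922 to 13890731 at the shared hours from 1 to 5 h. Fibroblast markers were high in every library, and their summed value was between 384474 and 531590 in starved libraries and between 193812 and 211057 at 24 to 27 h. The summed endothelial markers lay between 33.4 and 217 in the starved, 1 to 5 h and 24 to 27 h libraries, with Pecam1 and Cdh5 at 0 in at least 1 library of the series, and the summed epithelial markers lay between 71.2 and 472, with Epcam at 0 in at least 1. Some lists moved with the hours. Macrophage and blood markers (3 of 4 in the table) summed to 156 to 205 in Cycle 1 and 281 to 321 in Cycle 2 when starved, and to 239 to 286 and 384 to 490 from 1 to 5 h. Muscle markers, with Myod1 at 0 in at least 1 library, summed to 510 to 586 and 1628 to 1652 when starved and to 308 to 502 and 901 to 1140 from 1 to 5 h. Neural markers went from 690 to 708 and 1103 to 1132 when starved to between 579 and 4063 and between 797 and 2899. The part of these in the results was not tested. In bulk RNA, fewer cells of a type and less RNA per cell cannot be told apart.

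Zinc finger proteins of the C2H2 kind hold a zinc ion between a pair of cysteines and a pair of histidines, and each such finger can touch a few bases of DNA. They are the largest family of transcription factors in mammals, and many sit in clusters of near copies that arose by duplication. A large group also carries a KRAB box, which recruits the corepressor Trim28 and through it the histone methyltransferase Setdb1, and many of its members silence retroelements. Other proteins with a Zfp symbol have no part in this and act in ribosome assembly, RNA binding or the mitotic spindle.

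The label was checked against the coding sequences. Of the 214 genes, 211 had a coding transcript in the GENCODE annotation of NCBIM37, the build called mm9, and the number of fingers of the pattern C, 2 or 4 residues, C, 12 residues, H, 3 to 5 residues, H or C had a median of 10 and ranged from 0 to 40. The 6 genes with no match were Zfp259, Zfp330, Zfp365, Zfp503, Zfp703 and Zfp839. A narrow pattern of the KRAB box matched 52 genes and a wider one, added after the first had been seen to miss diverged boxes, brought this to 88, with 123 that matched neither. The wider pattern also matched 170 of 22000 other coding genes, so that the split is approximate. One exonic finger of each of several genes whose change after serum was large is printed here with the place of the gene in NCBIM37, as its coding sequence from that annotation, 5' to 3', with the codons of the 2 cysteines and 2 histidines in capitals, because it shows what the members share while their responses went in opposite directions. Zfp41, Zfp324, Zfp763 and Zfp229 fell and Zfp697 and Zfp954 rose.
Zfp41, gene at chr15:75447109-75455730: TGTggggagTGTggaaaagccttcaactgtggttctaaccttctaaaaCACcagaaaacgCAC
Zfp324, gene at chr7:13551187-13559585: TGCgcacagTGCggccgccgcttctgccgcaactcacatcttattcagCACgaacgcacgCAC
Zfp763, gene at chr17:33153808-33170347: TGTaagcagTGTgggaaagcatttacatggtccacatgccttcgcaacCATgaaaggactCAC
Zfp229, gene at chr17:21870691-21885935: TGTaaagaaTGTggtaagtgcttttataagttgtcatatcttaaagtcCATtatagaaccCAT
Zfp697, gene at chr3:98186404-98235871: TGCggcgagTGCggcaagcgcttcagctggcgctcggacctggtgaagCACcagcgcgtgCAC
Zfp954, gene at chr7:7067401-7074163: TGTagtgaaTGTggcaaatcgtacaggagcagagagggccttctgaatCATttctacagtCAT

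Values from 1 to 5 h are those of the 7 hours sampled in both Cycles. The first comparison asked how the Zfp genes changed in the first hours after serum, from 1 to 5 h, against the starved libraries. Of the 214 genes, 144 fell, 17 rose and 53 passed no test in limma on log2(value + 1) with a Benjamini-Hochberg adjusted p under 0.05 over all 15895 genes. The share that fell, 67.3%, stood beside 38.0% of all genes and 41.8% of the 10485 genes with a mean of 50 or more. The share that rose was 7.94%, beside 16.0% of those genes. The median log2 change of the Zfp genes was -0.59, with the middle 50% between -1.00 and -0.19, while the median over genes with a mean of 50 or more was -0.22. At least 2-fold lower and called were 53 Zfp genes, or 24.8%, beside 9.57% of the genes with a mean of 50 or more. At or below 0.5 of the starved mean in both Cycles at the same hour were 95 Zfp genes, or 44.4%, beside 20.0%.

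The same sign of the early change was found in both Cycles for 143 of the 144 genes that fell, and Zfp866 was the exception, with -0.97 in Cycle 1 and 0.02 in Cycle 2. The median early change was -0.74 in Cycle 1 and -0.40 in Cycle 2. With TMM factors, which assume that most genes do not change, the median over genes with a mean of 50 or more moved from -0.22 to -0.01 and 111 Zfp genes fell and 25 rose, while 2863 and 2852 of the 10485 genes did so. The share of falls among the calls went from 89.4% to 81.6% for the Zfp genes and from 72.3% to 50.1% for those genes. An edgeR quasi-likelihood test on the recovered reads, of which between 94.2% and 96.2% of low values were whole, called 102 Zfp genes lower and 22 higher. Shares of all genes in the edgeR test are not given here, so that an excess cannot be read from its counts.

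**Figure D1:**
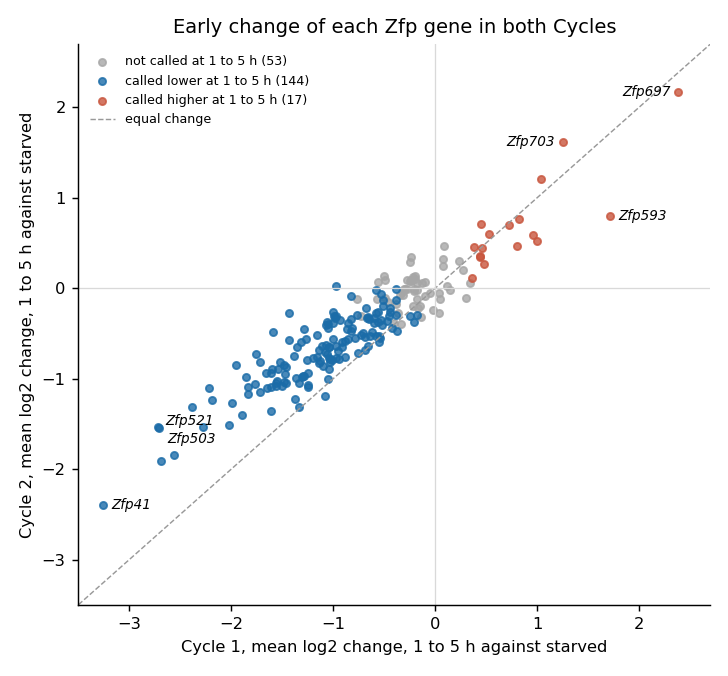
Each point is 1 of the 214 Zfp genes, with its mean log2 change at the 7 shared hours from 1 to 5 h against the starved libraries of the same Cycle, Cycle 1 on the horizontal and Cycle 2 on the vertical axis. Blue marks the 144 genes that fell, red the 17 that rose and grey the 53 not called, and most blue points lie above the dashed line of equal change, with a fall larger in Cycle 1.

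The fall came early. The median log2 change of the Zfp genes was -0.29 at 0.5 h, a time sampled in Cycle 2 only, and -0.81 in Cycle 1 and -0.55 in Cycle 2 at 1 h. It was lowest at 1.5 h in both Cycles, at -1.05 and -0.63, when 189 and 185 of the 214 genes were below their starved mean. At that hour 51.4% of the Zfp genes were at or below 0.5 of the starved mean in Cycle 1 and 31.8% in Cycle 2, beside 11.0% and 3.73% of the genes with a mean of 50 or more. By 5 h the median had come back to -0.35 and -0.15.

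**Figure D2:**
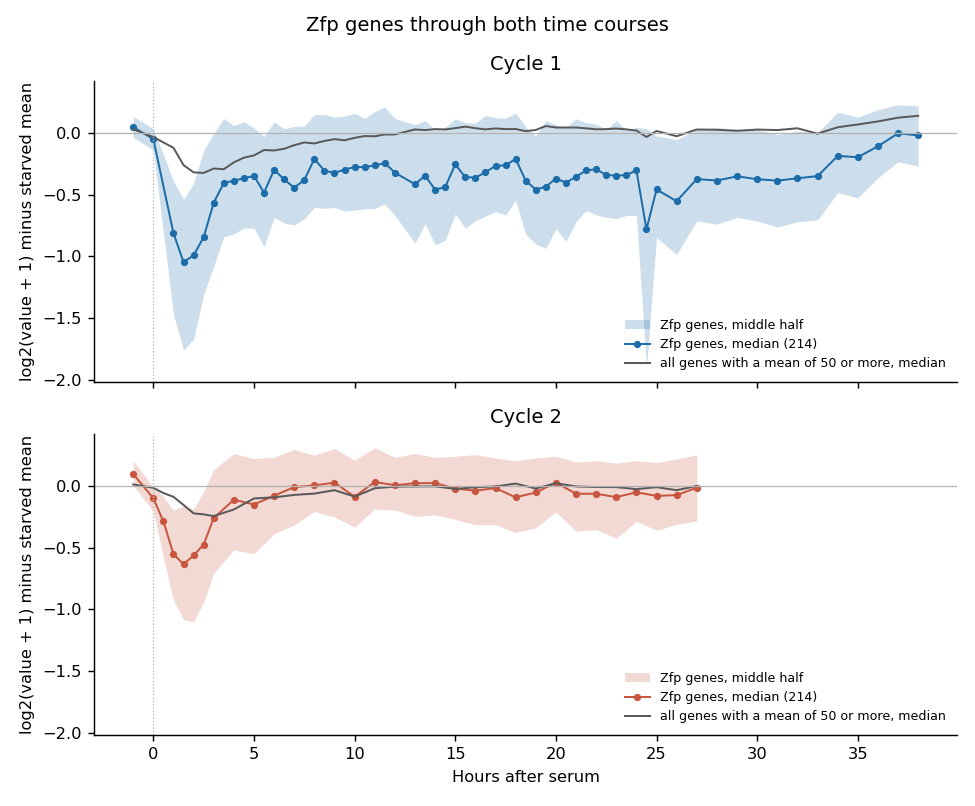
Median log2 change of the 214 Zfp genes against the starved mean of the same Cycle (points and line) with the middle 50% of the genes (band), and the median of all genes with a mean of 50 or more (grey), by hours after serum. The Zfp median is lowest at 1.5 h in both Cycles, lies between -0.09 and 0.03 from 7 h on in Cycle 2 and stays below 0 at every hour of Cycle 1 after serum, where it is -0.02 at 38 h.

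The starved baseline itself was moving. At 0 h 138 of the 214 Zfp genes were below their value 1 h earlier in Cycle 1 and 165 in Cycle 2, or 64.5% and 77.1%, beside 63.2% and 58.6% of the genes with a mean of 50 or more. The median step was -0.10 and -0.20 on the log2 scale. With the 0 h libraries alone as baseline, 115 Zfp genes fell and 16 rose. The share of all genes with this baseline is not given here, so that these counts are no measure of an excess.

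Of the 5 genes with the largest falls, Zfp41, Zfp324, Zfp395 and Zfp503 were below both starved values of their Cycle at all 7 hours, and Zfp521 was not at 1 h of Cycle 2. Zfp41 had starved values of 164 and 115 at -1 and 0 h of Cycle 1 and of 125 and 88.2 in Cycle 2. From 1 to 5 h its lowest, median and highest values were 3.80, 11.7 and 42.3 in Cycle 1 and 5.54, 22.2 and 36.8 in Cycle 2, so that the groups did not overlap. Its log2 change was -2.83 ± 0.21 (SE), with an adjusted p of 4.32e-13 in limma. Zfp324 went from 197 and 107 in Cycle 1 and 142 and 91.5 in Cycle 2 to medians of 19.5 and 34.9, with a log2 change of -2.30 ± 0.17 and an adjusted p of 4.81e-13 in limma. All its values from 1 to 5 h, up to 76.4 and 87.1, were below the starved ones. Zfp503, also called Nolz1, a corepressor of the NET family that acts in limb and neural development, had starved values of 1022 and 871 in Cycle 1 and of 805 and 659 in Cycle 2. Its values from 1 to 5 h ran from 67.4 to 393 in Cycle 1 and from 150 to 593 in Cycle 2, with a log2 change of -2.12 ± 0.18 and an adjusted p of 6.52e-12 in limma, and again no value reached the starved range. The other genes of this group were Zfp763, Zfp810, Zfp862, Zfp229, Zfp820, Zfp248 and Zfp647, with log2 changes from -1.90 for Zfp763 to -1.63 for Zfp647.

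Zfp395 and Zfp521 had their lowest mean change later, at 8 and 5 h, and had not come back by 27 h. Zfp395 had starved values of 571 and 625 in Cycle 1 and of 547 and 574 in Cycle 2, and from 1 to 5 h its lowest, median and highest values were 47.1, 65.8 and 454 in Cycle 1 and 70.3, 138 and 495 in Cycle 2. Its log2 change was -2.20 ± 0.18 at 1 to 5 h, with an adjusted p of 8.85e-12, and -2.60 ± 0.20 at 24 to 27 h, with an adjusted p of 1.2e-12 in limma. Zfp521, a cofactor that holds back early B cell factors and adipocyte differentiation, stood at 1440 and 1692 in the starved libraries of Cycle 1 and at 675 and 760 in those of Cycle 2. At 1 h it was still 1362 and 817, the latter above both starved values of its Cycle, and its lowest values from 1 to 5 h were 84.5 and 96.0. Its log2 change was -2.13 ± 0.18 early and -2.42 ± 0.19 late, with adjusted p of 6.19e-12 and 1.9e-12 in limma. It was the only gene of the mesenchymal and adipose list above the limit, since Zfp423 and Zfp467 had means of 25.0 and 36.0.

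Among the 17 genes that rose, Zfp697 changed most. Its starved values were 36.1 and 42.9 in Cycle 1 and 63.9 and 36.3 in Cycle 2, and from 1 to 5 h its lowest, median and highest values were 57.6, 248 and 375 in Cycle 1 and 53.7, 285 and 367 in Cycle 2. Only the 1 h value of Cycle 2 lay within the starved range of its Cycle, and the log2 change was 2.28 ± 0.14 early, with an adjusted p of 3.71e-15, and 2.06 ± 0.15 late in limma. Zfp703, the second member of the NET family, moved opposite to Zfp503. It stood at 483 and 470 in Cycle 1 and at 288 and 300 in Cycle 2 when starved, rose to between 730 and 1631 and between 640 and 1335 from 1 to 5 h, with a log2 change of 1.44 ± 0.18 and an adjusted p of 5.16e-08 in limma, and was back at -0.07 ± 0.20 at 24 to 27 h. In Cycle 2 the value of Zfp703 at 27 h was 544, beside 287 to 306 at 24 to 26 h. Zfp954 rose by 1.13 ± 0.09, Zfp330 by 0.79 ± 0.10 and Zfp948 by 0.77 ± 0.11 on the log2 scale. At 24 to 27 h the log2 changes of these 3 genes were -0.05, 0.24 and 0.22, and none passed the test.

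**Figure D3:**
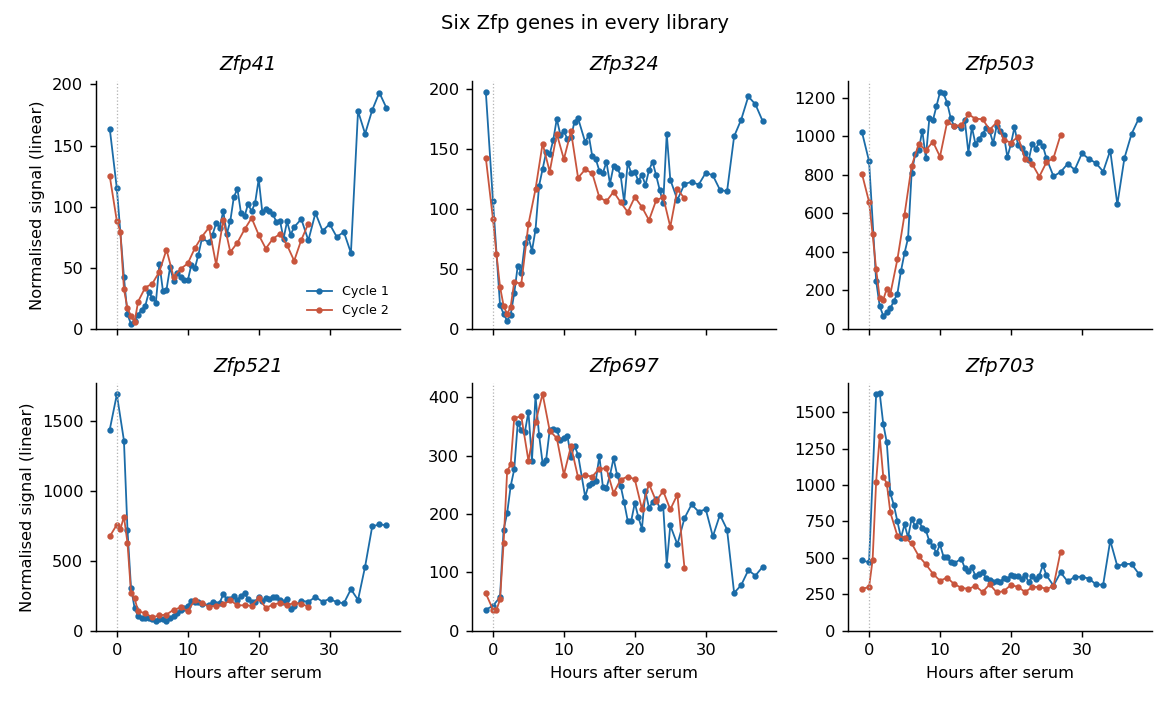
Value of 6 Zfp genes (normalised signal, linear axis from 0) in every library by hours after serum, Cycle 1 in blue and Cycle 2 in red. Zfp41, Zfp324 and Zfp503 fall within 2.5 h and rise again, Zfp521 stays low until after 33 h, Zfp697 lies above 100 from 1.5 to 33 h and Zfp703 rises for a few hours.

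Of 11 genes with roles in RNA, ribosomes, splicing or mitosis 5 rose, 2 fell and 4 were not called from 1 to 5 h, beside 16.0% of the genes with a mean of 50 or more that rose and 41.8% that fell, and their median log2 change was 0.07. The list was drawn up with earlier results of these data known, and its difference from the other Zfp genes was not tested. Zfp593, an assembly factor of the large ribosomal subunit, had starved values of 114 and 119 in Cycle 1 and of 141 and 158 in Cycle 2. It rose to medians of 441 and 285 from 1 to 5 h, with a log2 change of 1.26 ± 0.20 and an adjusted p of 2.06e-06 in limma, and was still 1.19 ± 0.21 higher at 24 to 27 h. Its range in Cycle 2, from 145 to 389, overlapped the starved values at 1 end. Zfp622, which acts late in the maturation of the large subunit, rose by 0.40 ± 0.16, but it missed the threshold without the -1 h library of Cycle 1, without the -1 h library of Cycle 2 and without the 0 h library of Cycle 2, with log2 changes of 0.42, 0.38 and 0.33. Zfp259, also called Zpr1, a zinc finger protein that binds growth factor receptors and moves to the nucleus after mitogens, rose by 0.76 ± 0.15 early and 0.88 ± 0.16 late. Zfp330 is a nucleolar protein, and Zfp830, a factor of the spliceosome, rose by 0.24 ± 0.09 and missed the threshold without the 0 h library of either Cycle, with changes of 0.20 and 0.20.

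The 2 genes of this list that fell were Zfp346, which binds double-stranded RNA, with a log2 change of -0.44 ± 0.08, and the RNA-binding Zfp106, with -0.60 ± 0.16, which in the -1 h library of Cycle 1 had 1551 beside 1738 to 1773 in the other starved libraries. Zfp598, the ubiquitin ligase of collided ribosomes, was at 0.07 ± 0.10, Zfp207, a microtubule protein that loads Bub3 onto kinetochores, at -0.05 ± 0.12, Zfp706 at -0.13 ± 0.12 and Zfp326 at 0.06 ± 0.11, and none of these 4 passed the test. With TMM factors, Zfp598 and Zfp326 were called higher. At 24 to 27 h Zfp207 was 0.35 ± 0.13 and Zfp598 0.32 ± 0.11 above starved, with adjusted p of 0.0231 and 0.0122 in limma. Zfp367, a factor linked to the cell cycle, was at 0.24 ± 0.22 early and not called, and at 0.59 ± 0.24 late, with an adjusted p of 0.0366 in limma. Its late change was 1.05 in Cycle 1, from 149 and 160 to between 300.4 and 359, and 0.13 in Cycle 2, where late values from 295 to 449 overlapped the starved 311 and 313.

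Among activators and factors that bind many promoters, 9 of the 11 genes listed were members, of which 5 fell and 4 were not called, beside 41.8% of the genes with a mean of 50 or more that fell. The largest fall was that of Zfp148, which binds GC-rich elements, from starved values of 876 and 918 in Cycle 1 and of 908 and 912 in Cycle 2 to between 320 and 634 and between 421 and 685. Its log2 change was -0.86 ± 0.13, with an adjusted p of 1.36e-06 in limma, and it was still -0.57 ± 0.14 at 24 to 27 h. The other falls were small, -0.36 for Zfp217, -0.28 for Zfp91, which shares 12.6% of its 50-base words with other genes, -0.24 for Zfp410, an activator of Chd4, and -0.20 for Zfp384. These 4 calls were lost with TMM factors, and Zfp384 then had a log2 change of 0.02. The call of Zfp384 was also lost without either starved library of Cycle 1, at -0.11 and -0.16, that of Zfp91 without either of Cycle 2, at -0.21 and -0.23, and that of Zfp217 without the -1 h library of Cycle 2, at -0.32. Zfp143, an activator of small nuclear RNA and other promoters, Zfp281, Zfp64 and Zfp263 stood at 0.10, -0.04, -0.05 and 0.20 and were not called. With TMM factors Zfp143 and Zfp263 were called higher.

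Of the 8 KRAB genes listed for known silencing targets, 4 were members. Zfp445, which guards imprinted regions, fell by 0.63 on the log2 scale, from starved values between 910 and 1136 to between 515 and 828, with an SE of 0.11 and an adjusted p of 1.56e-05 in limma. Neither KRAB pattern matched its annotated coding sequence, so that it counts among the genes without a match. Zfp809, which silences retroviral DNA in embryonic cells, fell by 0.58 with an SE of 0.18, a call lost with TMM factors, at -0.37, in edgeR, at -0.42, and in Cycle 2 alone, at -0.34. Zfp568 rose by 0.39 ± 0.13, a call lost without the -1 h library of Cycle 1, at 0.28. The call was also lost in each Cycle alone, with the 0 h libraries alone as baseline, at 1 to 2.5 h and in edgeR scaled by totals only. Zfp57, which keeps methylation at imprinted regions, was at -0.0049 ± 0.19, with starved values from 234 to 378 and values from 1 to 5 h from 189 to 571.

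Falls were found throughout the domain classes. Of the 88 genes with a KRAB box 66 fell and 5 rose, with a median of -0.80, and of the 123 without a match 75 fell and 12 rose, with a median of -0.46. Of the 38 genes with up to 4 fingers 20 fell, of the 62 with 5 to 9 fingers 41, and of the 111 with 10 or more 80, with medians of -0.34, -0.58 and -0.72. The early change and the number of fingers had a Pearson correlation of -0.14 over 211 genes, and the early change and the log2 mean value one of 0.41 over 214. The genes come from the same libraries, and the hours from 1 to 5 h are among those the mean is taken over. At a mean of 50 to 100, 57 of 69 Zfp genes fell, or 82.6%, beside 55.3% of all genes at that level. From 100 to 500 it was 78 of 124, or 62.9%, beside 48.7%, and at 500 or more 9 of 21, or 42.9%, beside 28.1%. No test was made between these classes.

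**Figure D4:**
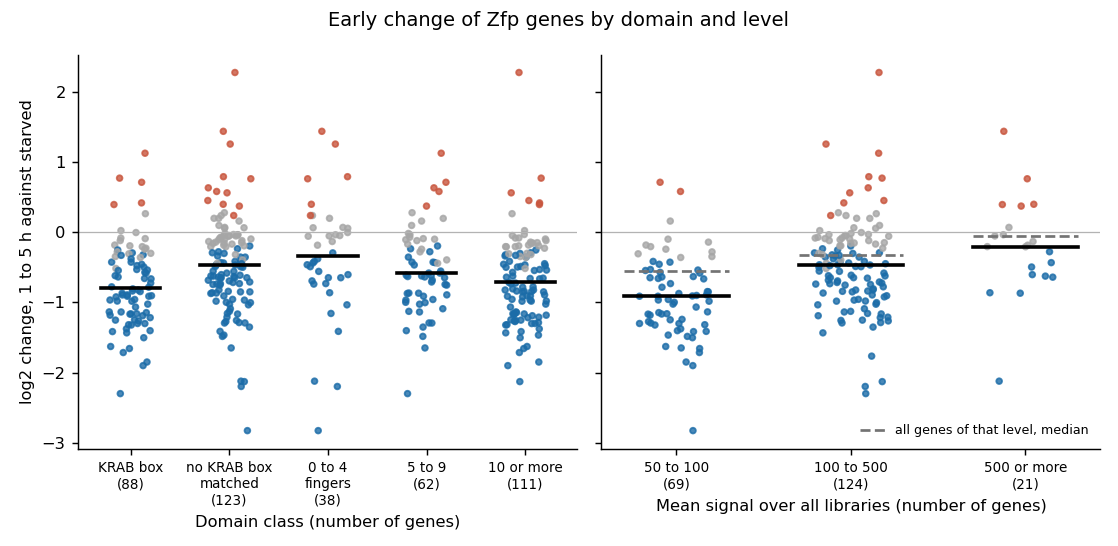
Log2 change at 1 to 5 h against starved (limma) of each Zfp gene, by KRAB box and number of fingers on the left and by mean value on the right, with the number of genes in parentheses. Blue points fell, red points rose and grey points were not called, black lines are medians and dashed lines the median of all genes of that level, and the medians are below 0 in every class.

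Many of the genes lie close to another. Of the 209 with 1 place in the annotation, 113 were within 200 kb of another Zfp gene of the table and 96 farther away, and 80 and 59 of these fell, with medians of -0.65 and -0.47. Chromosome 7 held 47 of the genes, of which 26 fell with a median of -0.44, and chromosome 17 held 31, of which 23 fell with a median of -0.81. On chromosome 17, Zfp948 (chr17:21704010-21725664) rose by 0.77 on the log2 scale. Its nearest neighbour among the members, Zfp52 (chr17:21672503-21699565), was at 0.02 ± 0.33 and not called, and Zfp229 (chr17:21870691-21885935), within 200 kb on the other side, fell by 1.72. Zfp52 was named after its value was seen. Over 10% of the 50-base words of 6 genes were shared with another gene, Zfp747 at 37.1%, Zfp937 at 29.1%, Zfp764 at 27.6%, Zfp959 at 23.6%, Zfp91 at 12.6% and Zfp652 at 11.4%, and their values are uncertain for that reason. Strand was not used in the counting, so that reads of overlapping genes cannot be told apart.

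Promoters were available from RefSeq for 172 of the 214 genes, as 212 windows of 300 bases, 250 before and 50 after the start, in build GRCm38.p6. Searched on both strands, CCAAT was in 45.3% of the windows, beside 37.4% of all 32851 windows, in 49.3% for genes that fell and in 3 of 13 for genes that rose. The GC box GGGCGG was in 49.1% beside 35.7%, CACGTG in 7.55% beside 7.15%, TGACGTCA in 2.83% beside 1.79% and the CArG box of serum response factor in 0.943% beside 1.63%. A CArG box can contain CCAAT, and the other motifs do not contain each other. A window held a median of 17 CG pairs, beside 7 in all windows. All windows are those of 27025 genes without a limit on the mean, while the members had a mean of 50 or more. Shares for other genes at that level are not given here. The 100 bases before the start of 3 genes that fell and of 1 that rose are printed to show such windows, on the strand of the gene, with matches to CCAAT and to the GC box named above, on either strand, in capitals.
Zfp324, chr7:12965738-12965837: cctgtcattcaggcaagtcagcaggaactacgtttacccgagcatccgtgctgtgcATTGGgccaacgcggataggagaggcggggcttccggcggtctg
Zfp763, chr17:33033382-33033481: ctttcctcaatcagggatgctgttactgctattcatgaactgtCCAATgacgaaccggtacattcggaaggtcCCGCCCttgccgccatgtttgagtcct
Zfp229, chr17:21733624-21733723: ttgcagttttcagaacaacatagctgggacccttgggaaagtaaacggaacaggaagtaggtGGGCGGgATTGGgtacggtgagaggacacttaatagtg
Zfp954, chr7:7121477-7121576: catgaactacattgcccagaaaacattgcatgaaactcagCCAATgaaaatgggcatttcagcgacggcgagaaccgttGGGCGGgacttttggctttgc
A match is a description of the letters and not a site of binding.

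The second question was how long the fall lasted. For the 144 genes that fell, the lowest mean change of the Cycles between 1 and 12 h came at a median of 2 h, with the middle 50% from 1.5 to 2.5 h, and at 2.5 h or before in 124 of them, or 86.1%. Of the 4380 genes with a mean of 50 or more that fell, 45.8% had their lowest value by then, with a median of 3 h. Recovery was taken as the first of 2 successive shared hours with less than 0.5 of the lowest log2 change left. Among the genes in which it came by 27 h, its median was 4 h for the Zfp genes and 6 h for all genes with a mean of 50 or more that fell. By 5 h it had come in 100 of the 144, or 69.4%, beside 36.8%. It did not come by 27 h in 11 Zfp genes, or 7.64%, beside 15.5%. A full return, to 2 successive shared hours at or above the starved level, was rarer in the Zfp genes. It came in 47 of the 144, or 32.6%, beside 42.7%. In Cycle 1 alone 25.7% of the 144 returned in full, and in Cycle 2 alone 56.9%. The hours of the lowest change and of recovery had the same medians, 2 h and 4 h, in each Cycle alone. These times rest on the same hours as the calls and are given as a description.

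Recovery by this measure came earliest in Zfp87, Zfp871 and Zfp866, at 1.5 h. At 2 h it came in 11 genes, of which Zfp39 is named. The measure does not count a later fall. Zfp871 fell again, to 426 in Cycle 1 and 362 in Cycle 2 at 5 h, beside 360 and 409 at 1 h. Zfp87 had 123 and 134 at -1 h and 52.0 and 47.0 at 0 h, so that its starved values already differed by more than 2-fold within an hour, and its log2 change of -0.55 ± 0.17 turned to 0.13 with the 0 h libraries alone as baseline. Zfp866 turned from -0.48 to 0.20 in the same way, and Zfp871 missed the threshold there. Without the -1 h library of Cycle 1 these 3 genes were at -0.34, -0.46 and -0.14, without that of Cycle 2 at -0.30, -0.44 and -0.36, and in neither case called. Zfp866 also lost its call without the 0 h library of Cycle 1, at -0.51. Zfp395, Zfp521, Zfp14 and Zfp292 were among the 11 genes that had not recovered by 27 h. Zfp14 was at -1.30 ± 0.22 early and -1.16 ± 0.24 late, and Zfp292 at -1.26 ± 0.22 and -1.16 ± 0.24.

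**Figure D5:**
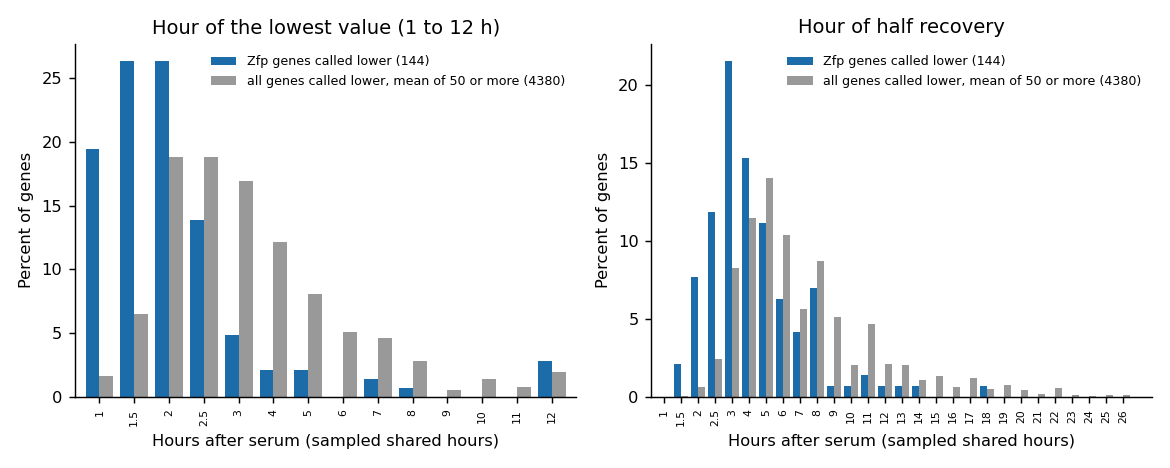
Percent of genes by the hour of the lowest mean log2 change of the Cycles (left) and by the hour of recovery (right), for the 144 Zfp genes that fell (blue) and the 4380 genes with a mean of 50 or more that fell (grey), over the sampled shared hours. The Zfp genes peak at 1.5 and 2 h on the left and at 3 h on the right, and genes without recovery by 27 h are not drawn.

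Later windows were compared with the same starved libraries, which the comparisons therefore share. The Zfp genes lower than starved numbered 77 at 6 to 10 h, 71 at 11 to 14 h, 74 at 15 to 18 h and 84 at 19 to 23 h, or 36.0%, 33.2%, 34.6% and 39.3%, beside 32.9%, 28.4%, 28.0% and 30.7% of the genes with a mean of 50 or more. At 24 to 27 h 83 were lower, or 38.8%, beside 30.7%, and 23 were higher, or 10.7%, beside 29.7%. The median log2 change was then -0.23. With TMM factors 47 were lower and 46 higher at 6 to 10 h, where falls went from 74.8% to 50.5% of the calls, and 70 were lower and 36 higher at 24 to 27 h, where they went from 78.3% to 66.0%. At 15 to 18 h the 74 lower and 32 higher became 59 and 43, and at 19 to 23 h the 84 lower and 28 higher became 68 and 37. The median over genes with a mean of 50 or more moved by 0.13 at 6 to 10 h and by 0.10 at 24 to 27 h with these factors. Of the 144 genes that fell early, 73 were lower at 24 to 27 h, 6 were higher and 65 were not called. The largest late falls were those of Zfp395, Zfp521 and Zfp608, the last at -1.85 ± 0.25 with an adjusted p of 2.3e-07 in limma, and the largest late rises those of Zfp697, Zfp593 and Zfp428. Zfp428 was not called early, at -0.06 ± 0.25, and rose by 0.90 ± 0.27 late, from starved values between 64.9 and 84.8. Its values at 24, 25, 26 and 27 h of Cycle 1 were 118, 160, 326 and 167, so that the highest was that of the 26 h library alone. In Cycle 2 its late values lay between 93.6 and 103.

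Between 1 to 5 h and 24 to 27 h, 122 Zfp genes rose and 28 fell, or 57.0% and 13.1%, beside 50.2% and 23.8% of the genes with a mean of 50 or more, with a median log2 change of 0.34. With TMM factors 101 rose and 42 fell. Of the 144 genes that fell early 103 rose between these windows, and of the 17 that rose early 10 fell. These genes were chosen by their values at 1 to 5 h, which also enter this comparison. A return is favoured by that choice, and the counts are only a description.

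The Cycles differed in the size of the fall and in its return. In Cycle 2 the median Zfp gene was at 0.01 at 8 h and at -0.01 at 27 h, and in Cycle 1 at -0.21 and -0.37. The change was tested between the Cycles with limma on the difference of the Cycles at each shared time, with the hours of a window as samples, which share a time course and are not independent cultures. By this test, chosen after the data were seen, 26 Zfp genes were lower in Cycle 1 at 1 to 5 h and 1 was higher, Zfp593, or 12.1% lower, beside 5.09% of the genes with a mean of 50 or more. At 24 to 27 h 51 were lower and 4 higher, or 23.8% lower, beside 13.9%. The median difference between the Cycles was -0.31 early and -0.36 late for the Zfp genes, and -0.09 and 0.02 for the genes with a mean of 50 or more. In Cycle 2 alone 24 Zfp genes were lower than starved at 24 to 27 h, and in Cycle 1 alone 81. The largest early differences were -1.19 for Zfp521, -1.16 for Zfp503 and -1.16 for Zfp58. The labels do not say what differed between the Cycles beside the times sampled.

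After 27 h there were libraries of Cycle 1 only, with no replicate. The Zfp median was between -0.39 and -0.35 from 28 to 33 h, -0.19 at 34 h and -0.0018 at 37 h. From 34 to 38 h 162 of the 214 genes, or 75.7%, were nearer to their starved level than from 28 to 33 h, beside 68.4% of the genes with a mean of 50 or more. Zfp41 went from between 62.0 and 94.8 at 28 to 33 h to between 160 and 193, Zfp521 from between 197 and 298 to between 221 and 762, and Zfp697 from between 162 and 216 to between 64.8 and 109. The ranges of Zfp41 and Zfp697 did not overlap between these hours. The library of Cycle 1 at 24.5 h stood apart, with a Zfp median of -0.78 beside -0.30 at 24 h and -0.46 at 25 h and a depth of 7143053 reads, and it was in no test. That of Cycle 1 at 26 h, with a Zfp median of -0.55, was in the tests of 24 to 27 h. At 26 h 25.2% of the Zfp genes were at or below 0.5 of the starved mean, beside 16.4% at 25 h and 13.1% at 27 h. The 27 h library of Cycle 2 was in these tests too, with a Zfp median of -0.01. In it single genes stood apart from 24 to 26 h of Cycle 2. Zfp703 was at 544 beside 287 to 306, and Zfp697 at 108 beside 208 to 239. The part of the 26 h library of Cycle 1 and of the 27 h library of Cycle 2 in the late calls was not tested.

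The 98 Zfp genes with a mean below 50 had the same direction. Of these 77 fell from 1 to 5 h, or 78.6%, beside 30.8% of the 5410 genes with a mean below 50, with a median log2 change of -1.18. Among related families with a mean of 50 or more, 5 of 6 Zscan and 5 of 6 Zkscan genes fell and 1 of each rose, and of 27 Zbtb genes 12 fell and 5 rose, with medians of -0.89, -0.65 and -0.28. Of all genes at that level 41.8% fell and 16.0% rose, and the share of falls in the Zbtb genes, 44.4%, was near this background.

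The partners through which KRAB proteins act were listed apart, with earlier results known. Of 22 listed genes for the Trim28 complex, its chromatin proteins and DNA methylation, 21 were in the table, and 15 fell and 6 were not called from 1 to 5 h, beside 41.8% of the genes with a mean of 50 or more that fell, with a median of -0.50. Atf7ip, which stabilises Setdb1, fell by 1.24 with an SE of 0.17, Setdb1 itself by 0.49 with an SE of 0.09 and the heterochromatin protein Cbx5 by 0.86 with an SE of 0.16. Trim28 was at -0.25 ± 0.12, with an adjusted p of 0.0662 in limma, and was not called. At 24 to 27 h 5 of the 21 were higher than starved, Trim28, Uhrf1, Dnmt1, Suv39h1 and Suv39h2, with log2 changes from 0.52 to 1.20. Only Dnmt3a was lower, at -1.24. Of the genes with a mean of 50 or more 29.7% were higher and 30.7% lower at these hours, so that the rises were no more frequent than in this background.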

How the data were processed

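Cells were starved in 0.5% serum for 36 h, RNA was selected for poly(A) and single-end 50-base reads were made. The deposited values are a signal: per the labels the authors demultiplexed with Casava, aligned to mm9 with STAR and counted exon reads with HOMER on both strands although the kit keeps strand, and brought all libraries to one common total; tool versions were not given in the sources used here. One column, whose name gives 12.5 h but no Cycle, was not used, so that the 12.5 h library of Cycle 1 was not analysed here.

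The members and gene lists were chosen with earlier results of these data known. Values were taken as log2(value + 1) and fitted with limma 3.58.1 in R 4.3.3, with 1 coefficient for each of the 29 shared hours and the starved libraries (62 libraries), and Benjamini-Hochberg adjustment over all 15895 genes at 0.05. Whole reads (tolerance 0.1) were recovered in 93 of 95 columns and tested with edgeR 4.0.16 as an alternative. Tables and figures were made with Python 3.11.15, pandas 2.3.3, numpy 2.4.6 and matplotlib 3.10.9. In simulated data for the early comparison, 126 of 200 changed genes among 15895 were called, with 3 unchanged genes called. The simulated libraries were independent, without the correlation that the hours of a Cycle have in these data. The counts therefore do not show how many false calls the fit makes here. The KRAB patterns and finger counts came from NCBIM37 coding sequences. No gene was filtered in the fit beyond the table itself. Genes were named by rule: the 12 largest falls and 6 largest rises, the 4 earliest and 4 latest recoveries, the 3 largest late changes in each direction, the 3 largest Cycle differences, 5 genes on each side of the mean of 50, and the members of the role lists. Further genes tied with those named for their recovery. Genes given for shared sequence or for a missing finger were named in addition.

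The labels give each library its Cycle, which pairs libraries of different hours. Over 406 pairs of hours the correlation of their Cycle deviations had a median of 0.464 and was over 0.1 in 91.1%. The fit with Cycle as a block was an alternative, beside TMM factors, equal medians, other windows and baselines, other limits on the mean and leaving out each Cycle or starved library.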

Additional observations from a re-analysis of the deposited data

Results flagged for a closer look

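Among 50 named Zfp genes tested for a library far from the others of its group, 1 stood out, which is within the share of about 1 in 20 that chance gives. Zfp106 had a starved value of 1551 at -1 h of Cycle 1, beside 1738 to 1773 in the other starved libraries.

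The early change differed between the Cycles in 11 named genes, by limma on the difference of the Cycles with the hours of a window as samples and an adjusted p under 0.05. Cycle 1 minus Cycle 2 was -1.19 for Zfp521, -1.16 for Zfp503, -1.16 for Zfp58, -1.12 for Zfp820, -1.11 for Zfp608, -1.08 for Zfp810, -0.99 for Zfp866, -0.95 for Zfp229, -0.78 for Zfp324 and -0.38 for Zfp384 on the log2 scale. Zfp593 went the other way, at 0.92, with the larger rise in Cycle 1. The hours of a Cycle come from 1 time course, so that these tests do not measure the spread between cultures.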

How the results depend on the processing

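The 144 early falls were 53 at a log2 change beyond 1 and between 100 and 152 when a Cycle or a starved library was left out, with 100 in Cycle 2 alone and 134 in Cycle 1 alone. The 17 early rises were 4 beyond 1 and between 11 and 17, and the early median of -0.59 was -0.33 in edgeR and between -0.74 and -0.40. The 83 late falls lay between 24 and 97, with 24 in Cycle 2 alone, the 23 late rises between 9 and 25, with 15 without the 0 h library of Cycle 2, and they were 36 with TMM factors. The late median lay between -0.45 and -0.06. From early to late, the 28 falls were 47 with equal medians and between 16 and 29, the 122 rises between 81 and 123, and the median of 0.34 was 0.23 with TMM factors, 0.22 in edgeR, 0.19 with equal medians and between 0.31 and 0.34. The median hour of recovery, 4 h, became 7.5 h when the change left had to be under 0.25 of the lowest and 3 h with TMM factors. With Cycle as a block the counts were 151 and 18 early, 90 and 29 late, and 126 rises and 32 falls from early to late, and the block changed no call of a named gene. Of 900 values of the 50 named genes under 18 settings, 804 kept direction and call, 74 lost the call, 14 gained it and 8 reversed. Zfp87 reversed to 0.13 with the 0 h baseline and 0.0033 at 2 to 5 h, Zfp866 to 0.20 with that baseline and 0.0199 in Cycle 2 alone, beside -0.97 in Cycle 1 alone, Zfp384 to 0.017 with TMM factors, 0.083 in edgeR and 0.015 with equal medians, and Zfp410 to 0.0090 in edgeR. The cause was not tested. The counts of this section are given without the share of all genes under the same settings. With a mean of 100 or more as the limit 60.0% of members fell early, and with 20 or more 71.3%. Low counts limit the genes near the mean of 50, where a value of 4 in a library rests on few reads.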
